A study of Saccharomyces cerevisiae W303 with 86 samples.

Results

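The comparison set budding yeast lacking COX9, a small nuclear-encoded subunit of complex IV, directly against yeast lacking COR1, a core subunit of complex III, without wild type in between. It used the 3 mRNA libraries labelled cox9D and the 3 labelled cor1D, 6 of the 86 libraries of the series, chosen by their labels and not by any measured value. Both groups were made in strain W303-1A, a haploid laboratory strain of mating type a, carried no other labelled change and received no treatment. They were grown in synthetic complete medium with 2% glucose and taken in mid-log phase, at an optical density of 0.5 to 0.8. Poly(A) RNA was sequenced, and the replicates are biological, according to the series' design text. The same set of 18 libraries also holds atp7D cells, which lack a stalk subunit of the ATP synthase, r0 cells, which lack mitochondrial DNA, and 6 wild-type libraries. These 3 groups give context levels below and did not enter the test. The labels do not say whether a mutant is 1 clone.

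Complexes III and IV are the last proton-pumping steps of the yeast respiratory chain. Complex III takes electrons from coenzyme Q and passes them to cytochrome c, and complex IV passes them from cytochrome c to oxygen. Budding yeast has no proton-pumping complex I, and instead feeds coenzyme Q from simpler NADH dehydrogenases. A few enzymes, the lactate dehydrogenases DLD1 and CYB2 among them, hand electrons straight to cytochrome c, after complex III and before complex IV. Cells on glucose ferment, and can grow without either complex.

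Expression is given as RPKM, that is reads relative to gene length and library size, for 7126 genes and other features per library. The libraries hold 10533650 to 13984452 reads in cox9D cells and 12093332 to 13128806 reads in cor1D cells, as estimated from the steps between RPKM values. COX9 (YDL067C, chromosome IV, 334217 to 334396 of build R64) had 0, 0.7945 and 0.5274 RPKM in the cox9D libraries, against 365.9, 317.4 and 317.0 RPKM in the cor1D libraries. COR1 (YBL045C, chromosome II, 134143 to 135516) had 189.4, 187.1 and 198.5 RPKM in the cox9D libraries, against 0.5587, 0.3326 and 0.2407 RPKM in the cor1D libraries. Each library thus fits its label, and the remaining signal is 0 to 2 reads of COX9 in cox9D cells and 4 to 10 reads of COR1 in cor1D cells. As checks of the strain, the mating factor MFA1 of a cells was at 302.5 to 333.6 RPKM in cox9D cells and 327.0 to 417.7 RPKM in cor1D cells. MF(ALPHA)1, the factor of the opposite mating type, was at 0.8825 to 1.723 RPKM in cox9D cells and 0.7647 to 2.004 RPKM in cor1D cells. Of the other alpha genes tested, STE3 was also low, at 1.344 to 1.928 and 0.5976 to 1.112 RPKM. MF(ALPHA)2, at 13.34 to 14.53 and 10.36 to 11.75 RPKM, and SAG1, at 16.52 to 19.22 and 16.77 to 18.55 RPKM, were not near 0.

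One library stood apart before any comparison. Replicate 1 of cor1D deviated from the mean of the 6 libraries by a root mean square of 0.173 on the log2 scale, while the other 5 deviated by 0.0964 to 0.106. Its 10 tested features of the mitochondrial chromosome lay a median of 1.16 below the other cor1D libraries on the log2 scale. HAP1, a transcription factor that responds to heme, was at 40.72 RPKM in it and at 94.68 and 90.69 RPKM in the other cor1D libraries, with 91.99, 89.17 and 92.11 RPKM in cox9D cells. HAP1 was named for these values after they were seen. Distances between libraries, as the root mean square log2 difference over 5957 features, ran from 0.136 to 0.237 between the mutants. They ran from 0.136 to 0.153 among cox9D libraries and from 0.144 to 0.232 among cor1D libraries. Every distance above 0.168 involved replicate 1 of cor1D. Its distances to the other cor1D libraries were 0.232 and 0.225, while those 2 libraries were 0.144 apart. Without it, distances between the mutants ran from 0.136 to 0.168. Each result below holds this library, and values without it are given where it decides a call.

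Very few mRNAs separated the mutants. With limma's moderated test on log2(RPKM + 1), Benjamini-Hochberg adjusted over 6579 tested features at 0.05, 9 features were called, which is 0.137% of those tested. Of these, 6 were higher in cox9D cells (0.0912%) and 3 lower (0.0456%). Of the 9, 2 are the deleted genes themselves, which leaves 7 others: DLD1, ECM3, COS8, IMD2 and the 5S rRNA feature RDN5-1 higher, and HMX1 and QCR10 lower. At an unadjusted p under 0.05 there were 360 features (5.47%), 174 higher (2.64%) and 186 lower (2.83%). The median log2 difference of all tested features was 0.0013, with quartiles of -0.05 and 0.06. Leaving out 1 library in turn gave 3 to 9 calls, 3 without any 1 of the cox9D libraries (the deleted genes and DLD1), 4 without replicate 3 of cor1D, 6 without its replicate 2 and 9 without its replicate 1.

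The precision bounds how far apart the mutants can be for most genes. Of the 5957 features that averaged at least 3 on the log2 scale, with the deleted genes left out, 5755 (96.6%) had a 95% interval of the difference lying wholly within 1.5-fold either way. The point estimate passed 1.5-fold for 18 features, 17 higher and 1 lower in cox9D cells. In 51 features the interval reached 2-fold. DLD1 was the single protein-coding gene among those 18 that was called.

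**Figure D1:**
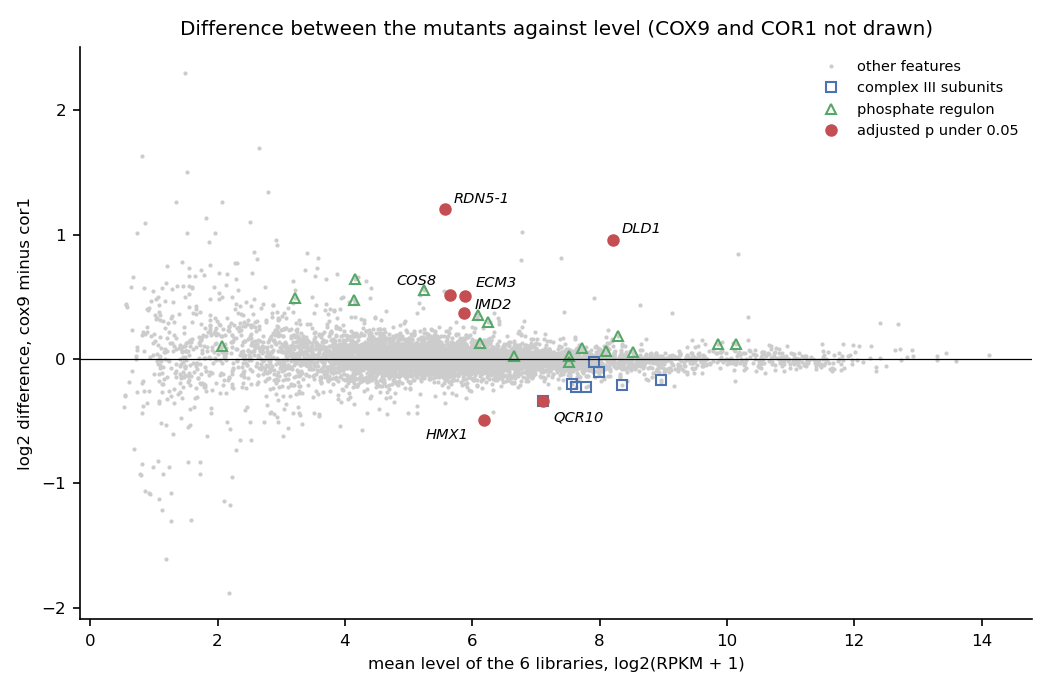
Log2 difference (cox9D minus cor1D, vertical axis) of each tested feature against its mean level over the 6 libraries, log2(RPKM + 1) (horizontal axis), with COX9 and COR1 not drawn. Red points are the 7 other called features, blue squares the complex III subunits and green triangles the phosphate regulon. Most features lie close to 0, DLD1 stands clear at 0.96, and the complex III squares lie below 0.

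DLD1 (YDL174C, chromosome IV, 145826 to 147589), the mitochondrial D-lactate dehydrogenase that reduces cytochrome c, differed most clearly. Its level was 413.0, 419.4 and 402.4 RPKM in cox9D cells, against 220.5, 204.9 and 209.6 RPKM in cor1D cells. The groups lie far apart, with the lowest cox9D library above the highest cor1D library by many times the spread within either. DLD1 rose by 0.96 on the log2 scale (SE 0.05, 95% interval 0.85 to 1.07, limma adjusted p = 9.21e-05). It averaged 412 ± 8.56 RPKM in cox9D cells and 212 ± 7.98 RPKM in cor1D cells (SD, n = 3 each). Wild-type libraries held 157.7 to 177.2 RPKM, below both mutants, whereas atp7D cells held 359.4 to 406.0 RPKM and r0 cells 432.0 to 436.0 RPKM.

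CYB2 (YML054C, chromosome XIII), the L-lactate cytochrome c oxidoreductase, is the counterpart of DLD1 for the other lactate isomer. It had 39.3, 45.3 and 49.71 RPKM in cox9D cells, against 28.48, 33.71 and 27.28 RPKM in cor1D cells. The groups do not overlap, but the difference of 0.57 (95% interval 0.34 to 0.80) did not pass over all features (limma adjusted p = 0.189). It passed in 3 of the 19 other settings tried, with an adjusted p of 0.0488 over the 12 mutant libraries, 0.045 with limma-voom on recovered reads and 0.0334 with library weights. The last was added after the data were seen. The adjusted p was 0.494 with the replicate number as a block, 0.348 without a variance trend and 0.142 to 0.681 with 1 library left out. It did not pass over all 18 libraries either. Wild-type libraries 1 to 3 held 23.33 to 28.7 RPKM of CYB2, and wild-type libraries 4 to 6 held 11.3 to 13.61 RPKM.

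The other genes of cytochrome c and of the dehydrogenases that feed the chain showed smaller values. In the list of these 9 genes, DLD1 was the 1 called member. The list's median difference was 0.16, against 0.0013 for all features, but -0.02 without replicate 1 of cor1D. NDE1, the main external NADH dehydrogenase, which feeds coenzyme Q, had 409.2, 387.8 and 402.2 RPKM in cox9D cells, against 426.0, 429.6 and 491.8 RPKM in cor1D cells (difference -0.16, adjusted p = 0.844). CYC1, the main cytochrome c, differed by -0.12 (95% interval -0.25 to 0.02), and its libraries overlap. CYC3, the enzyme that attaches heme to cytochrome c, differed by 0.19 (adjusted p = 0.818). NDI1, the internal NADH dehydrogenase, and GUT2, the mitochondrial glycerol-3-phosphate dehydrogenase, overlap between the mutants, at differences of -0.17 and -0.07.

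**Figure D2:**
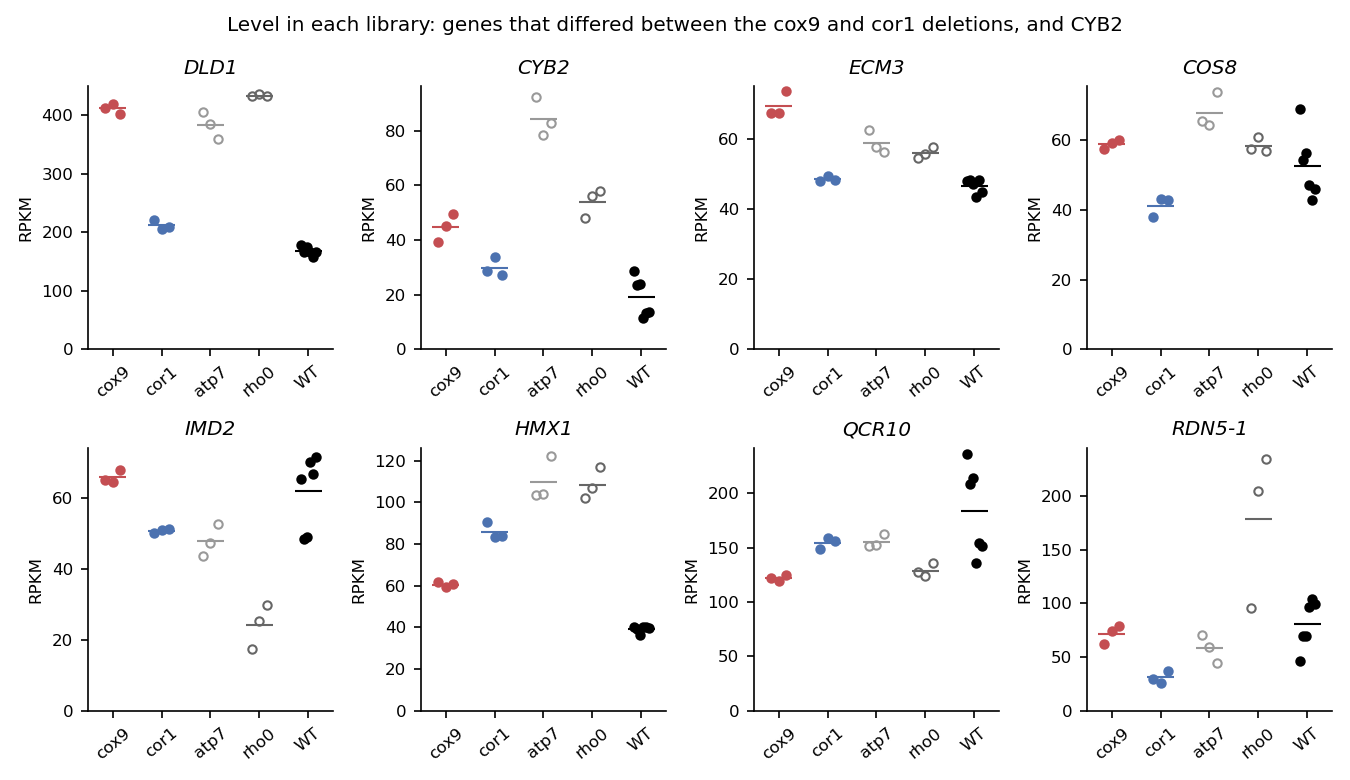
RPKM of each library (points; lines are group means) for the 7 called features other than the deleted genes and for CYB2, with groups cox9D, cor1D, atp7D, r0 (drawn as rho0) and wild type along each horizontal axis. DLD1 lies at 402.4 to 419.4 RPKM in cox9D cells against 204.9 to 220.5 in cor1D cells, and HMX1 at 59.22 to 61.64 against 83.27 to 90.36.

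Complex III mRNAs were on the lower side in cox9D cells, the mutant that still has COR1. QCR10 (YHR001W-A, chromosome VIII, 107826 to 108122), a small subunit, had 122.1, 119.5 and 125.0 RPKM in cox9D cells, against 148.9, 158.8 and 156.2 RPKM in cor1D cells. Wild-type libraries 1 to 3 held 208.7 to 236.5 RPKM of QCR10, and those numbered 4 to 6 held 135.9 to 154.5 RPKM. QCR10 was lower by 0.33 on the log2 scale in cox9D cells (SE 0.04, limma adjusted p = 0.028). It was the 1 called member of the 8 subunits other than COR1. All 8 had a difference below 0, although QCR8 turned above 0 without replicate 1 of cox9D (0.0039) or without replicate 2 (0.0633) or 3 (0.0823) of cor1D. The median was -0.20, and in 7 the 2 groups did not overlap. Across all features 5.64% were lower without overlap. The subunits were measured in the same 6 libraries, so their common direction is not separate evidence from each. QCR10 lost its call without any 1 library other than replicate 1 of cor1D, at adjusted p of 0.142 to 0.262 and differences of -0.34 to -0.32.

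CYT1, the heme-carrying cytochrome c1 to which electrons pass last within complex III, had 197.1, 202.1 and 208.1 RPKM in cox9D cells, against 232.0, 248.2 and 230.8 RPKM in cor1D cells. The difference was -0.22 (95% interval -0.31 to -0.13, adjusted p = 0.189, or 0.0399 over the 12 mutant libraries). CYT1 passed in no other setting. RIP1, the iron-sulfur subunit, had 175.8, 176.8 and 195.1 RPKM in cox9D cells, against 205.8, 223.6 and 213.6 RPKM in cor1D cells (difference -0.23, adjusted p = 0.434). QCR2, the second core subunit, had 177.1, 174.2 and 178.1 RPKM in cox9D cells, against 206.2, 210.8 and 194.4 RPKM in cor1D cells (difference -0.20, adjusted p = 0.333). Each of these 3 was lower in every cox9D library than in any cor1D library, but none passed over all features. QCR7, QCR6 and QCR9 differed by -0.21, -0.17 and -0.11, with adjusted p of 0.541 to 0.85. QCR8 was the exception to the separation. It had 223.9, 228.8 and 259.5 RPKM in cox9D cells, against 181.8, 277.7 and 280.3 RPKM in cor1D cells, where replicate 1 is the low library.

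Complex IV subunits other than COX9 were closer together, and none of the 9 was called. Their median difference was -0.13, with 8 of 9 below 0 and 4 lower without overlap, beside 5.64% of all features. COX5A, the aerobic form of subunit 5, had 206.8, 202.5 and 214.1 RPKM in cox9D cells, against 250.9, 238.4 and 236.8 RPKM in cor1D cells (difference -0.22, 95% interval -0.32 to -0.12, adjusted p = 0.323). COX4, COX13 and COX8 differed by -0.14, -0.14 and -0.13, also without overlap, at adjusted p of 0.597 to 0.85. COX5B, the form of subunit 5 used at low oxygen, overlapped between the mutants at 98.69, 95.19 and 101.2 RPKM in cox9D cells and 80.63, 102.2 and 78.16 RPKM in cor1D cells. COX26, a peripheral subunit, had the widest interval, -1.04 to 0.18 around a difference of -0.43, and the interval holds both directions. Its difference was -0.14 without replicate 2 of cor1D and -0.24 without replicate 2 of cox9D. The other members, COX6, COX7 and COX12, overlapped too.

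**Figure D3:**
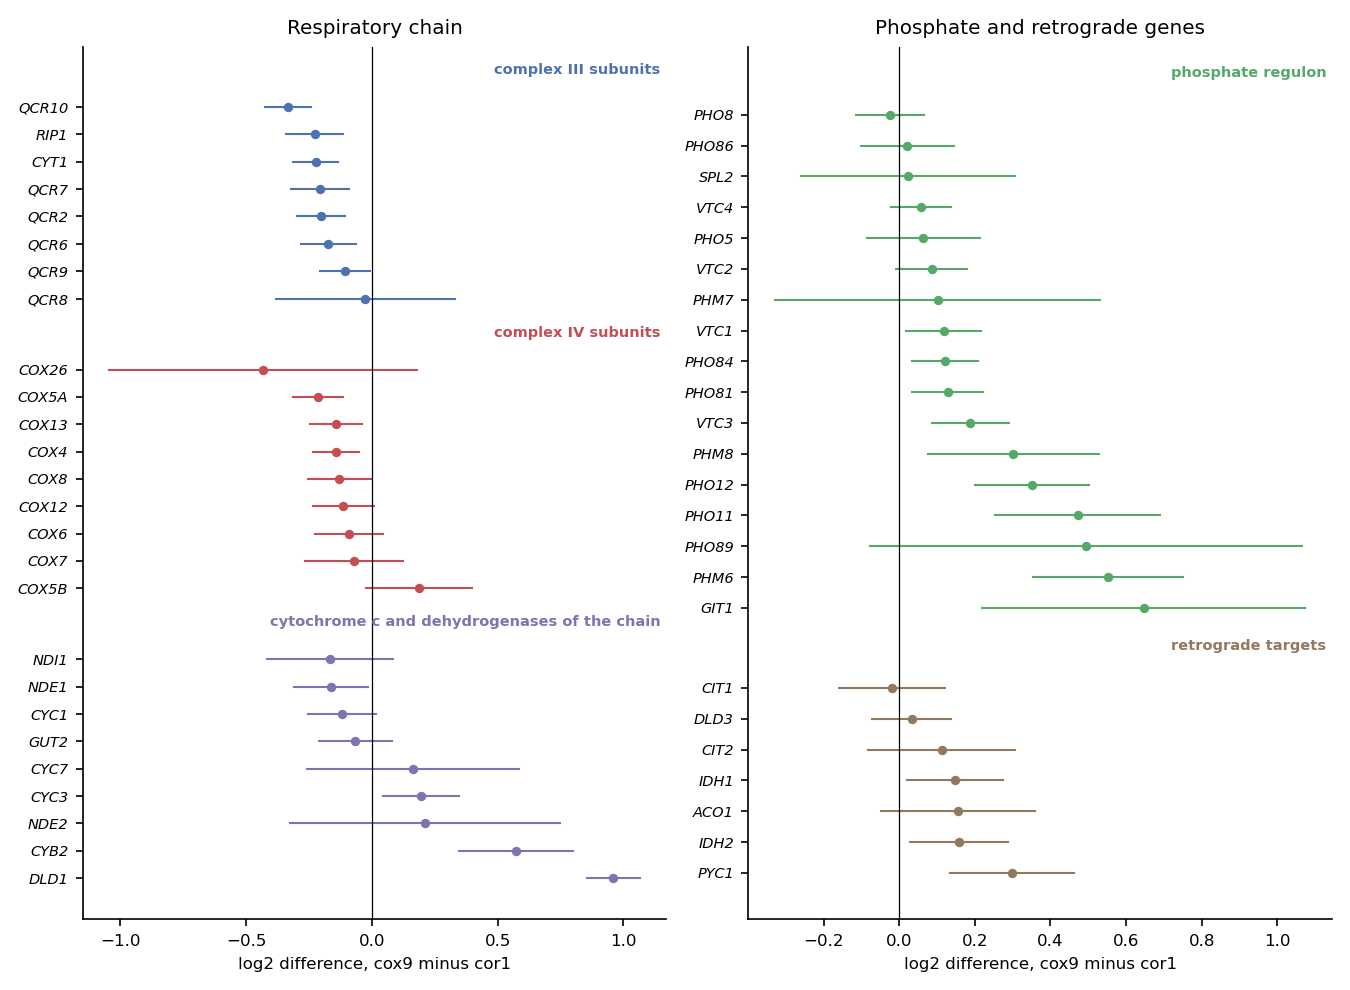
Log2 difference (cox9D minus cor1D, horizontal axis) with its 95% interval from limma for each tested gene of 5 lists, ordered within each list. Points are estimates and lines are intervals. Some genes of each list have intervals clear of 0, among them DLD1, CYB2, COX5A, PYC1, several phosphate genes and every complex III subunit except QCR8. Among all of these DLD1 and QCR10 alone passed the adjusted test.

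The ATP synthase, which lies downstream of both complexes, had 0 of 14 subunit genes called, where 0.137% of all features were. At an unadjusted limma p under 0.05, 3 were lower and 0 higher, beside 2.83% and 2.64% of all features. Without overlap 3 were lower and 0 higher, beside 5.64% and 6.05% of all features. The median difference was -0.06, with 13 of 14 below 0, and the 14 intervals together reached from -0.31 to 0.14. ATP16, the delta subunit, had the smallest p, at 207.1, 212.9 and 220.1 RPKM in cox9D cells, against 240.6, 231.0 and 233.5 RPKM in cor1D cells (difference -0.14, adjusted p = 0.699). INH1, the inhibitor of reverse ATP hydrolysis by this enzyme, differed by -0.14 (95% interval -0.25 to -0.02, adjusted p = 0.818). For the 32 genes of complex IV assembly and COX mRNA activation, and the 10 of complex III assembly and COB expression, no member was called and the medians were -0.01 and -0.02.

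HMX1 (YLR205C, chromosome XII, 552724 to 553677), the heme oxygenase that releases iron from heme, was the called gene on the lower side apart from QCR10 and the deleted COX9. It had 61.64, 59.22 and 60.7 RPKM in cox9D cells, against 90.36, 83.27 and 83.73 RPKM in cor1D cells. HMX1 fell by 0.49 (SE 0.05, 95% interval -0.61 to -0.37, limma adjusted p = 0.0236). Wild-type libraries held 36.5 to 40.36 RPKM, below both mutants, and atp7D and r0 libraries 101.9 to 122.0 RPKM, above both. DLD1 and HMX1 thus take different orders: for DLD1 the cor1D level is the nearer to wild type, and for HMX1 the cox9D level is. Without any 1 of the cox9D libraries or replicate 3 of cor1D, HMX1 kept its direction but not its call, at adjusted p of 0.107 to 0.186.

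HMX1 was the 1 called member of 26 iron regulon genes, the set that the factors Aft1 and Aft2 control when iron is short. Across all features 0.137% were called. The median of the 26 was -0.01. Without overlap 2 were higher and 3, HMX1 among them, lower, beside 6.05% and 5.64% of all features. The cell wall mannoprotein gene FIT2 had 6.088, 6.656 and 8.836 RPKM in cox9D cells, against 6.646, 4.946 and 4.833 RPKM in cor1D cells (difference 0.34, adjusted p = 0.857). SMF3, a vacuolar iron transporter, differed by 0.11 (adjusted p = 0.85). Of 14 genes of heme synthesis and heme-responsive regulation none was called, and none separated the mutants. HEM13, for example, which is induced when heme or oxygen is low, differed by 0.09 (95% interval -0.06 to 0.24).

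The remaining called features have fewer ties to respiration. ECM3 (YOR092W, chromosome XV, 495127 to 496968) had 67.61, 67.51 and 73.7 RPKM in cox9D cells, against 48.13, 49.46 and 48.26 RPKM in cor1D cells, and rose by 0.51 (SE 0.05, adjusted p = 0.0118). Wild-type libraries held 43.58 to 48.36 RPKM of ECM3, close to the cor1D level. Its call was lost without any 1 of the cox9D libraries or replicate 3 of cor1D, at adjusted p of 0.0703 to 0.0947. IMD2 (YHR216W, chromosome VIII, 554396 to 555967), an IMP dehydrogenase of guanine nucleotide synthesis, had 64.91, 64.41 and 67.82 RPKM in cox9D cells, against 49.95, 50.97 and 51.13 RPKM in cor1D cells. IMD2 rose by 0.37 (SE 0.04, adjusted p = 0.0279), and it was the 1 called of 17 purine synthesis genes tested. Wild-type libraries 1 to 3 held 65.23, 48.38 and 48.84 RPKM of IMD2, and wild-type libraries 4 to 6 held 66.77 to 71.45 RPKM.

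COS8 (YHL048W, chromosome VIII, 6401 to 7546), of a subtelomeric family of membrane proteins, had 57.6, 59.34 and 60.22 RPKM in cox9D cells, against 37.84, 43.14 and 42.79 RPKM in cor1D cells. It rose by 0.51 (SE 0.06, adjusted p = 0.0249). Wild-type libraries 1 to 3 held 54.38 to 69.01 RPKM of COS8, nearer the cox9D level. Those numbered 4 to 6 held 42.71 to 47.23 RPKM, nearer the cor1D level. COS8 lost its call without any 1 library other than replicate 1 of cor1D (adjusted p of 0.0797 to 0.209), and so did IMD2 (0.142 to 0.242). COS8 and IMD2 have near-identical relatives, and the counting of reads with several map positions is not given in the sources used here, so both values are uncertain. RDN5-1, a copy of the 5S rRNA gene, had 62.47, 74.46 and 78.46 RPKM in cox9D cells, against 29.82, 25.81 and 36.9 RPKM in cor1D cells. RDN5-1 was higher by 1.20 in cox9D cells (SE 0.13, adjusted p = 0.0249). Wild-type libraries 1 to 3 held 46.6 to 69.67 RPKM and those numbered 4 to 6 held 96.96 to 103.8 RPKM, all above the cor1D range. 5S rRNA has no poly(A) tail as a mature molecule, and its other copies were listed at 0 to 1.453 RPKM in cox9D cells and at 0 in cor1D cells, and the part of poly(A) selection and counting in its value was not tested. RDN5-1 lost its call without replicate 1 of cor1D, where the 8 other called features kept theirs, and without any 1 of the cox9D libraries.

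The phosphate regulon, genes that the factor Pho4 induces when phosphate is short, had no called member of 17. Its median difference was 0.12, with 16 of 17 above 0 and 11 higher without overlap, where 6.05% of all features were higher without overlap. PHM6, a gene of that regulon with no settled role, had 42.13, 49.94 and 43.4 RPKM in cox9D cells, against 33.39, 29.26 and 28.88 RPKM in cor1D cells (difference 0.55, 95% interval 0.35 to 0.75, adjusted p = 0.128, or 0.0126 with library weights). PHO12, an acid phosphatase, had 77.56, 76.4 and 73.7 RPKM in cox9D cells, against 63.64, 55.34 and 59.49 RPKM in cor1D cells (difference 0.35, adjusted p = 0.231, or 0.0334 with library weights). PHO11, nearly identical to PHO12 and so uncertain, differed by 0.47 (adjusted p = 0.323, or 0.0258 with library weights). PHM6, PHO12 and PHO11 passed in no other setting, and library weights were added after the data were seen. GIT1, the glycerophosphoinositol transporter, had 17.67, 20.76 and 26.16 RPKM in cox9D cells, against 12.13, 17.61 and 10.83 RPKM in cor1D cells (difference 0.65, adjusted p = 0.659).

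The other members were nearer to 0. PHO84, the high-affinity phosphate transporter, had 973.4, 970.3 and 957.8 RPKM in cox9D cells, against 913.3, 891.8 and 867.8 RPKM in cor1D cells (difference 0.12, adjusted p = 0.774). VTC3, of the complex that makes vacuolar polyphosphate, differed by 0.19 (adjusted p = 0.541). PHO5, the secreted acid phosphatase, differed by 0.06 (95% interval -0.09 to 0.21), and SPL2, a regulator of phosphate transport, by 0.02 (95% interval -0.26 to 0.31). The list therefore leaned to one side in sum while no single gene passed. Its members share a regulator and were measured in the same 6 libraries, so they are not separate evidence.

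Retrograde targets, the genes that Rtg1 and Rtg3 raise when mitochondria fail, had 0 of 7 called and a median of 0.15. PYC1, a pyruvate carboxylase, had 79.1, 91.66 and 85.54 RPKM in cox9D cells, against 74.66, 65.55 and 68.06 RPKM in cor1D cells (difference 0.30, 95% interval 0.13 to 0.46, adjusted p = 0.541). IDH2 and IDH1, the subunits of isocitrate dehydrogenase, differed by 0.16 and 0.15 (adjusted p = 0.818 for each). CIT2, the peroxisomal citrate synthase and the usual reporter of the pathway, had 185.4, 220.7 and 228.1 RPKM in cox9D cells, against 212.4, 189.2 and 185.1 RPKM in cor1D cells. Its interval, -0.08 to 0.31, bounds any difference on either side. DLD3, a cytosolic D-lactate dehydrogenase relative of DLD1, had 492.8, 476.5 and 461.7 RPKM in cox9D cells, against 446.6, 487.0 and 468.0 RPKM in cor1D cells. DLD3 overlapped between the mutants (95% interval -0.07 to 0.14), in contrast to the separation of DLD1.

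Large functional groups stayed close in their medians. Across all features 0.137% were called. None of 69 mitochondrial ribosome genes was called, with a median of 0.03 and single estimates of -0.14 to 0.22. Of these 69, 51 were above 0 and 9 were higher without overlap, where 6.05% of all features were. None of 137 cytosolic ribosomal protein genes or of 57 ribosome biogenesis genes was called, each list with a median of -0.01, or 0.03 and 0.01 without replicate 1 of cor1D. Glycolysis and ethanol production had 0 of 19 called at a median of 0.03, with 16 above 0 and 5 higher without overlap (6.05% of all features). Ergosterol synthesis had 0 of 23 called at a median of -0.07, with 16 below 0, 7 lower without overlap (5.64% of all features) and 0 higher. General stress genes had 0 of 30 called, with a median of 0.02, or -0.02 without replicate 1 of cor1D. In coenzyme Q synthesis 0 of 11 were called, with a median of 0.05. There COQ11 was at 30.04, 29.75 and 33.58 RPKM in cox9D cells, against 24.67, 25.85 and 26.47 RPKM in cor1D cells (difference 0.27, adjusted p = 0.541). Sulfur and methionine genes had 0 of 23 called and 21 of 23 below 0, at a median of -0.08. Of these 23, 3 were lower and 0 higher without overlap (5.64% and 6.05% of all features). Mitochondrial import and folding had 0 of 33 called at a median of 0.03, with 24 above 0. There 7 were higher and 1 lower without overlap, beside the same shares. Of 36 lists, 4 held a called gene (complex III, the cytochrome c and dehydrogenase list, iron and purine), each of them 1, and 28 had a median within 0.1 of 0.

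In replicate 1 of cor1D, measured against the other cor1D libraries, the cytosolic ribosomal protein list lay 0.12 higher in its median, general stress genes 0.14 lower and retrograde targets 0.13 lower. Complex III and the phosphate regulon lay within 0.01 and 0.02 of them, at -0.0033 and 0.0121. Zinc-responsive genes lay 0.19 higher, complex IV subunits 0.08 lower and the cytochrome c and dehydrogenase list 0.08 higher. Without that library the retrograde median was 0.10 in place of 0.15, PYC1 differed by 0.36, CIT2 by 0.18 and DLD3 by 0.0071, and none was called. The zinc list, with 0 of 10 called, had a median of 0.14 with all 6 libraries and 0.19 without it.

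**Figure D4:**
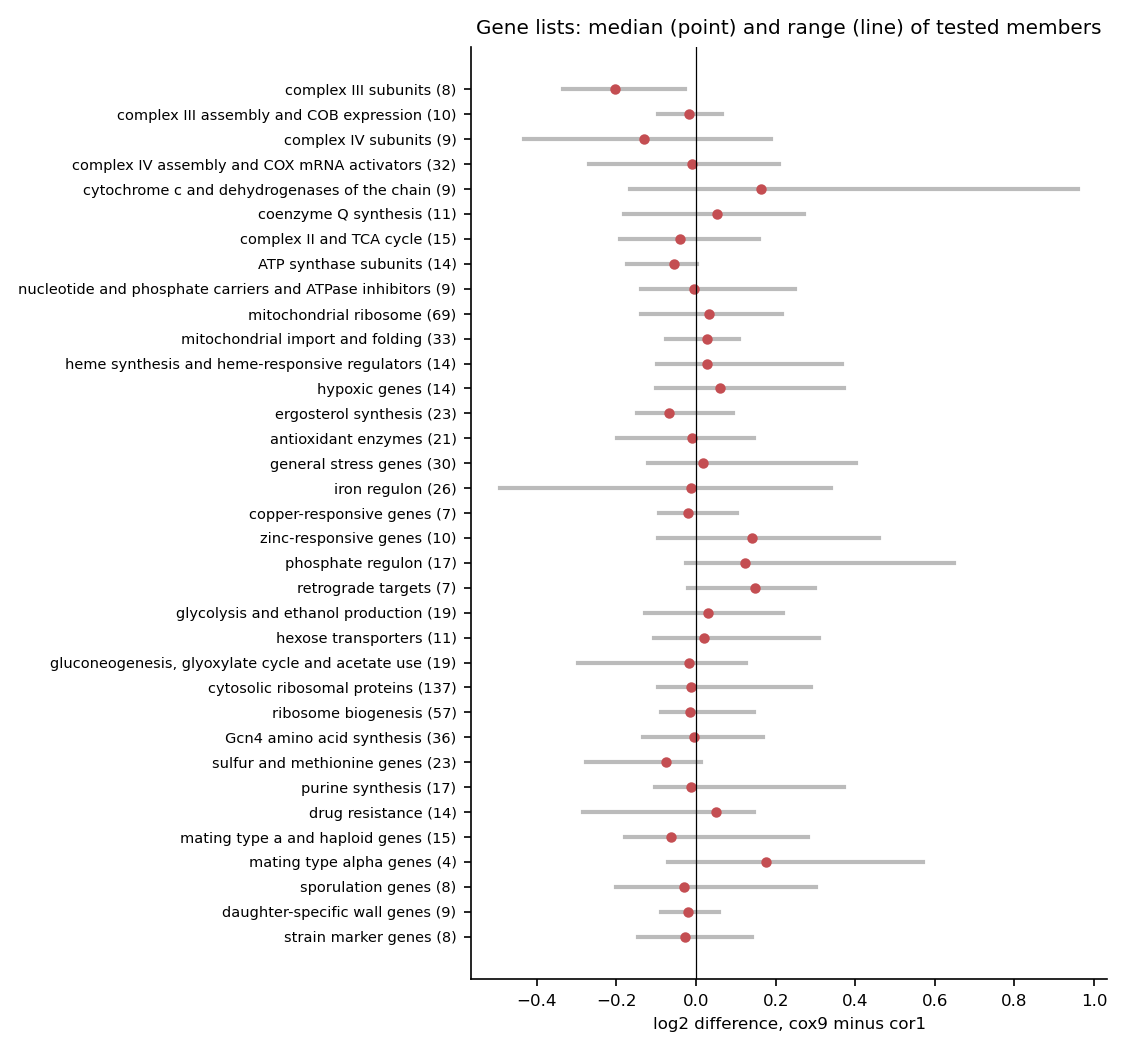
Log2 difference (cox9D minus cor1D, horizontal axis) of 35 gene lists, with the number of tested members in brackets, the median as a point and the range of members as a line, deleted genes and the mitochondrially encoded list left out. The complex III list has the lowest median, at -0.20, and the cytochrome c and dehydrogenase list reaches farthest to the right through DLD1.

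Transcripts of mitochondrial DNA are poorly sampled in poly(A) libraries, since yeast mitochondrial mRNAs lack poly(A) tails. Of 8 mitochondrially encoded protein genes 3 passed the filter and none was called. COX1, the catalytic subunit of complex IV, had 9.583, 9.133 and 9.76 RPKM in cox9D cells, against 1.435, 7.403 and 6.749 RPKM in cor1D cells (difference 0.96, adjusted p = 0.85). ATP6 overlapped, at 1.24, 1.1 and 1.582 RPKM in cox9D cells and 0.09841, 1.758 and 1.06 RPKM in cor1D cells. OLI1 overlapped too, at 4.946, 9.287 and 5.343 RPKM in cox9D cells and 3.988, 6.924 and 6.443 RPKM in cor1D cells. The low cor1D value of COX1 and ATP6 is replicate 1, the library that stood apart. All 10 tested features of the mitochondrial chromosome, 6 of them reading frames within introns of COX1, had a difference above 0, at a median of 0.70, and 6 were higher without overlap. Across all features 6.05% were higher without overlap, and COX1 and the frames in its introns are 1 locus, not separate evidence. Without replicate 1 of cor1D the median of the 10 was 0.30. Again 6 were higher without overlap, but against fewer cor1D libraries, where separation comes more easily, so the 2 counts are not alike.

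The genes next to the deletions were read as a check on each locus. IDP1, the mitochondrial NADP-dependent isocitrate dehydrogenase beside COX9 (YDL066W, chromosome IV, 334835 to 336121), had 304.4, 297.8 and 303.2 RPKM in cox9D cells, against 256.5, 257.8 and 256.9 RPKM in cor1D cells. The difference was 0.23 (95% interval 0.15 to 0.31), with limma adjusted p = 0.105, or 0.0335 over the 12 mutant libraries and 0.0213 with library weights. IDP1 passed in no other setting. Its adjusted p was 0.341 over all 18 libraries, 0.531 with the replicate number as a block and 0.348 without a variance trend. Wild-type libraries held 288.4 to 324.8 RPKM, at the cox9D level. BDF2, on the other side, had 108.6, 119.0 and 129.0 RPKM in cox9D cells, against 91.58, 99.77 and 107.1 RPKM in cor1D cells (difference 0.26, adjusted p = 0.661). CBS1 and PEX19 near COX9 differed by -0.08 and 0.02, and EDE1, PSY4 and ECM13 near COR1 by -0.02, -0.01 and 0.09, all with overlapping libraries.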

How the data were processed

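Per the submitters' processing notes, the authors used CASAVA (1.9), STAR (2.6.1a), featureCounts and edgeR (3.28.1) on build R64, and deposited 1 RPKM value per feature and library. What filters, gene lengths and treatment of multiply mapped reads they chose is not given in the sources used here. RPKM times annotated length gave whole reads (within 0.05) for at least 95.2% of the values above 0 in features with an annotated length, from which depth was estimated.

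The 6 libraries were scaled by an unweighted TMM step that trimmed 30% by ratio and 5% by level, with factors of 0.988 to 1.01. Features with at least 1 RPKM in 3 libraries were kept. Their log2(RPKM + 1) was tested with limma 3.58.1 in R 4.3.3 (variance trend, Benjamini-Hochberg threshold 0.05). The fit was also run on simulated data with independent normal noise. No library stood apart there, so that run does not show how replicate 1 of cor1D affects the calls. Differences are cox9D minus cor1D on the log2(RPKM + 1) scale, which understates those of low genes. Printed RPKM are as deposited. P-values rest on the spread of 3 cultures per mutant, with each feature's variance drawn toward that of other features of like level. Members of a list were measured in the same libraries, so a count of members on one side is not a count of separate results.

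The comparison, the 36 gene lists and the tests were chosen with earlier results of these data known. Of 783 list entries 2 were not matched. The naming rule takes the deleted genes, called genes, complex III and IV subunits, the genes of smallest p in each list and direction, locus neighbours and 8 genes of earlier interest. Not all are printed. Alternatives were other scalings, filters, pseudocounts, libraries in the fit, a replicate block, no variance trend, limma-voom on recovered reads, each library left out and, added after seeing the data, library weights.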

Additional observations from a re-analysis of the deposited data

Results flagged for a closer look

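HMX1 had 1 wild-type library apart from the others: the lowest of the 6, at 36.5 RPKM, was separated from the next by 0.692 of the group's whole range, above the critical value for 6 samples. Chance gives such a gap in about 1 of 20 groups. The same check was run on the wild-type values of DLD1, ECM3, COS8, IMD2 and QCR10, without a flag. A flag somewhere among all these genes is therefore likelier than in 1 group. All 6 wild-type values of HMX1, up to 40.36 RPKM, lie below the cox9D range of 59.22 to 61.64 RPKM and the cor1D range of 83.27 to 90.36 RPKM.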

How the results depend on the processing

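DLD1, COX9 and COR1 were called under all 19 other settings, DLD1 at log2 differences of 0.93 to 1.00. Of these 19 ECM3 was called in 14, HMX1 in 13, RDN5-1 and COS8 in 11, and QCR10 and IMD2 in 10, each with the same sign throughout. The count of 9 became 3 with the replicate number as a block, 5 without a variance trend and 18 with library weights, which gave replicate 1 of cor1D 0.274 and shared all 9. Leaving out 1 library gave 3 to 9. It was 3 without any one of the cox9D libraries and 4 without replicate 3 of cor1D, with 6 without replicate 2 and 9, of which 8 shared, without replicate 1. Fewer libraries were fitted there, and the cause was not otherwise tested. Same-numbered libraries had residual correlations of -0.20, -0.23 and -0.03, and differently numbered ones ran from -0.13 to 0.25. With 3 libraries a group, these values cannot tell whether the numbers pair the samples. The other settings gave 7 to 11. Small differences changed sign with 1 library left out. COX7 ran between -0.14 and 8e-04 (above 0 without cor1D replicate 2), HSP12 between -0.0264 (without cor1D replicate 3) and 0.40, DLD3 between -3e-04 (without cox9D replicate 1) and 0.0628, and ECM13 between -0.0196 (without cor1D replicate 2) and 0.20. CBS1 ran between -0.24 and 0.0453, EDE1 between -0.0474 and 0.0064, QCR8 between -0.23 and 0.0823, and PSY4 between -0.0401 and 0.0108. With 3 libraries a group, the median SE of 0.06 among features averaging at least 3 limits what could be called.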

Other observations

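Chosen after their values were seen, 3 genes at the ends of chromosome VIII were higher in cox9D cells. COS8 lies at the left end, and PHO12 and IMD2 lie side by side at the right end. The outermost 30 kb at the right end, which include PHO12 and IMD2, had a median difference of 0.20 over 7 tested features, and those at the left end, which include COS8, a median of 0.08 over 12. Over all 32 chromosome ends the medians ran from -0.14 to 0.20, and 8 ends, the right end of VIII among them, lay above the left end of VIII. All 272 tested features of chromosome VIII had a median of -0.006.

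PUT4, the proline permease, had 70.45, 63.39 and 71.1 RPKM in cox9D cells, against 88.58, 102.3 and 86.03 RPKM in cor1D cells (difference -0.42, limma adjusted p = 0.189, or 0.0497 with limma-voom on recovered reads). The libraries do not overlap, and PUT4 passed in no other setting.

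A few features tracked HAP1 in being low in replicate 1 of cor1D. The uncharacterized YDR034C-A had 1592, 1563 and 1486 RPKM in cox9D cells, against 261.5, 1475 and 1656 RPKM in cor1D cells. It had 479.1 to 780.7 RPKM in wild-type libraries 1 to 3 and 827.7 to 897.8 RPKM in 4 to 6. YER138W-A had 154.9, 165.5 and 146.5 RPKM in cox9D cells, against 19.74, 152.3 and 143.3 RPKM in cor1D cells. It too was lower in wild-type libraries 1 to 3, at 43.81 to 74.28 RPKM, than in 4 to 6, at 99.41 to 112.8 RPKM. Both were chosen after their values were seen.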
